A study of Mus musculus with 7 samples.

Results

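The 10 genes described here handle heme and iron and were followed through single-cell RNA data of mouse epidermis taken 3 weeks after bone marrow transplantation (BMT). They were chosen by symbol: Hmox1, Blvrb, Slc40a1, Slc11a1, Fth1, Ftl1, Tfrc, Nfe2l2, Gclm and Txnrd1. All 10 were among the 15155 genes of the donor cell table and the 26383 genes of the keratinocyte table, and 9 were among the 23737 genes of the host table. Slc40a1 was not analysed in host cells. The data were 7 droplet libraries read at the 5′ end of RNA with unique molecular identifiers (UMIs). Lethally irradiated male CD45.2 C57BL/6 hosts carried bone marrow of female CD45.1 C57BL/6 donors, and the age of the mice was not given in the sources used here. Donor CD11b+MHCII+ myeloid cells came as 3 libraries labelled BMT (replicates 1, 2 and 3) and 1 labelled BMT with T cells (called BMT + T cells, replicate 4). Sorted CD45-negative keratinocytes came as 1 library under each label, and myeloid cells of the host, by the same sort, as 1 library labelled BMT. The text on the design of the series has all hosts receive T cells (CD4 cells, and CD8 cells of the Matahari line that recognise a male antigen), whereas the labels name T cells for only some libraries, so comparisons between conditions were made between labels.

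Heme oxygenase 1, encoded by Hmox1, opens the heme ring and sets iron free. Biliverdin reductase B (Blvrb) is one of the enzymes that reduce biliverdin, the pigment left from heme. It is not taken here as the step that follows Hmox1. Iron then is stored in ferritin, a shell built from the heavy chain Fth1 and the light chain Ftl1, or leaves the cell through ferroportin (Slc40a1), while the transferrin receptor (Tfrc) takes iron in and Slc11a1 moves metal out of the phagosome. Nrf2, encoded by Nfe2l2, is a transcription factor that binds antioxidant response elements and is known to drive Hmox1, the ferritin genes, the glutathione synthesis subunit Gclm and thioredoxin reductase 1 (Txnrd1). Macrophages that clear red cells are the textbook site of this pathway, and Langerhans cells are the myeloid cells that live in the epidermis.

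Because Nrf2 acts through a short motif, stretches of RefSeq promoter windows (build GRCm38.p6, 250 bases before to 50 after a start) are shown here, 5′ to 3′ in the direction of transcription. Capitals mark matches to the core of the antioxidant response element, TGACNNNGC on either strand, and the ferritin stretches are the 100 bases before a start.
Nfe2l2: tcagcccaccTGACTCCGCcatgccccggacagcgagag
Gclm: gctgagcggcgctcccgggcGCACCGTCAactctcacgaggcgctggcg
Txnrd1: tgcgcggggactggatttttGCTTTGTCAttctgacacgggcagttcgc
Fth1: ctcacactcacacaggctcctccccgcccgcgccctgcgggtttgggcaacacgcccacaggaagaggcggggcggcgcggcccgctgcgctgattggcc
Ftl1: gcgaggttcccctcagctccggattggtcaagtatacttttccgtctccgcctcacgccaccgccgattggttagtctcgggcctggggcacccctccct
They lie at chr2:75704875-75704913 (minus strand), chr3:122245403-122245451 (plus), chr10:82859094-82859142 (plus), chr19:9982546-9982645 (plus) and chr7:45459887-45459986 (minus), in that order. Windows were given for 8 of the 10 genes, without Hmox1 and Slc40a1. These genes had 13 windows, since some have several starts. The core stood in 3 of the 13, 1 each of Nfe2l2, Gclm and Txnrd1, and in 4071 of all 32851 windows (12.4%). CAGTGN, the loop letters of the iron-responsive element, was searched on the sense strand of the 50 transcribed bases and stood in 1 of the 13, of Txnrd1, and in 2325 of all windows (7.08%). Such matches describe letters and are neither a site nor a cause. The letters in a window say nothing about a factor where they are missing. The rest of each transcript was not searched for the loop letters, so their absence from a window says nothing about the transcript.

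The donor libraries held 2572, 8382, 226 and 719 cells (replicates 1 to 4) at medians of 13387, 7021.5, 12081.5 and 12374 UMIs per cell, and at most 7 cell barcodes were shared by any pair of libraries. Levels are the mean over the cells of a library and an annotated cluster of UMIs per 10000 UMIs of the cell (CP10K). A cluster was used in a library where it had at least 20 cells, which gave 27 such means. Clusters carry the authors' names: Mono (monocytes), S100a_Mono, ISG_Mono, Hmox1_Mono, Mrc1_Mac (macrophages), MC, and the resident, cycling and migrating monocyte-derived Langerhans cells (Res_mLC, Cyc_mLC and Mig_mLC). The authors found these clusters on the same cells, so a p-value between clusters is not independent evidence for them. All donor clusters were fitted together with library as a block. Such a p-value therefore rests on the spread between libraries that is left after the block, pooled over all clusters. For a cluster with few libraries it rests largely on the spread of other clusters. The animals were pooled for sorting and the labels do not say that libraries came from separate animals, so this spread may be technical. Of the 10 genes, 8 passed the filter for testing (a mean of at least 0.1 CP10K), whereas Gclm at 0.098 and Slc40a1 at 0.0208 did not.

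Hmox1_Mono held 259 cells (24, 123, 6 and 106 in replicates 1 to 4), so 3 libraries entered its comparisons. Its summed level of 5 classical monocyte markers (Plac8, Ly6c2, Lyz2, Chil3, Ccr2) was 87.1, 54.8 and 51.5 CP10K in BMT replicates 1 and 2 and BMT + T cells, against 46.2, 25.4, 20.7 and 50.7 CP10K in Mrc1_Mac. The 5 macrophage markers (Mrc1, Arg1, C1qa, C1qb, Ms4a7) summed to 21.9, 70.1 and 56.8 CP10K in Hmox1_Mono and to 103, 82.9, 81.6 and 136 CP10K in Mrc1_Mac. Both lists were therefore seen in both clusters, with monocyte markers above the Mrc1_Mac range and macrophage markers below it in every Hmox1_Mono library. The neutrophil markers (6 of 7 listed in the table) stood at 48.6 CP10K in Hmox1_Mono of BMT replicate 1 but at 5.89 and 7.79 CP10K in the others. In Mrc1_Mac of BMT replicate 1 they stood at 1.21 CP10K. The Hmox1_Mono cells of that library thus stand apart, and the calls of Hmox1_Mono against Mrc1_Mac are also given without that library. Erythroid markers were at 0 in Hmox1_Mono (1 of 7 listed) and the 3 listed genes of dissociation stress summed to 7.63, 6.88 and 11.4 CP10K there against 7.35, 4.56, 7.74 and 8.38 CP10K in Mrc1_Mac, and the part of that difference in the results was not tested.

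**Figure D1:**
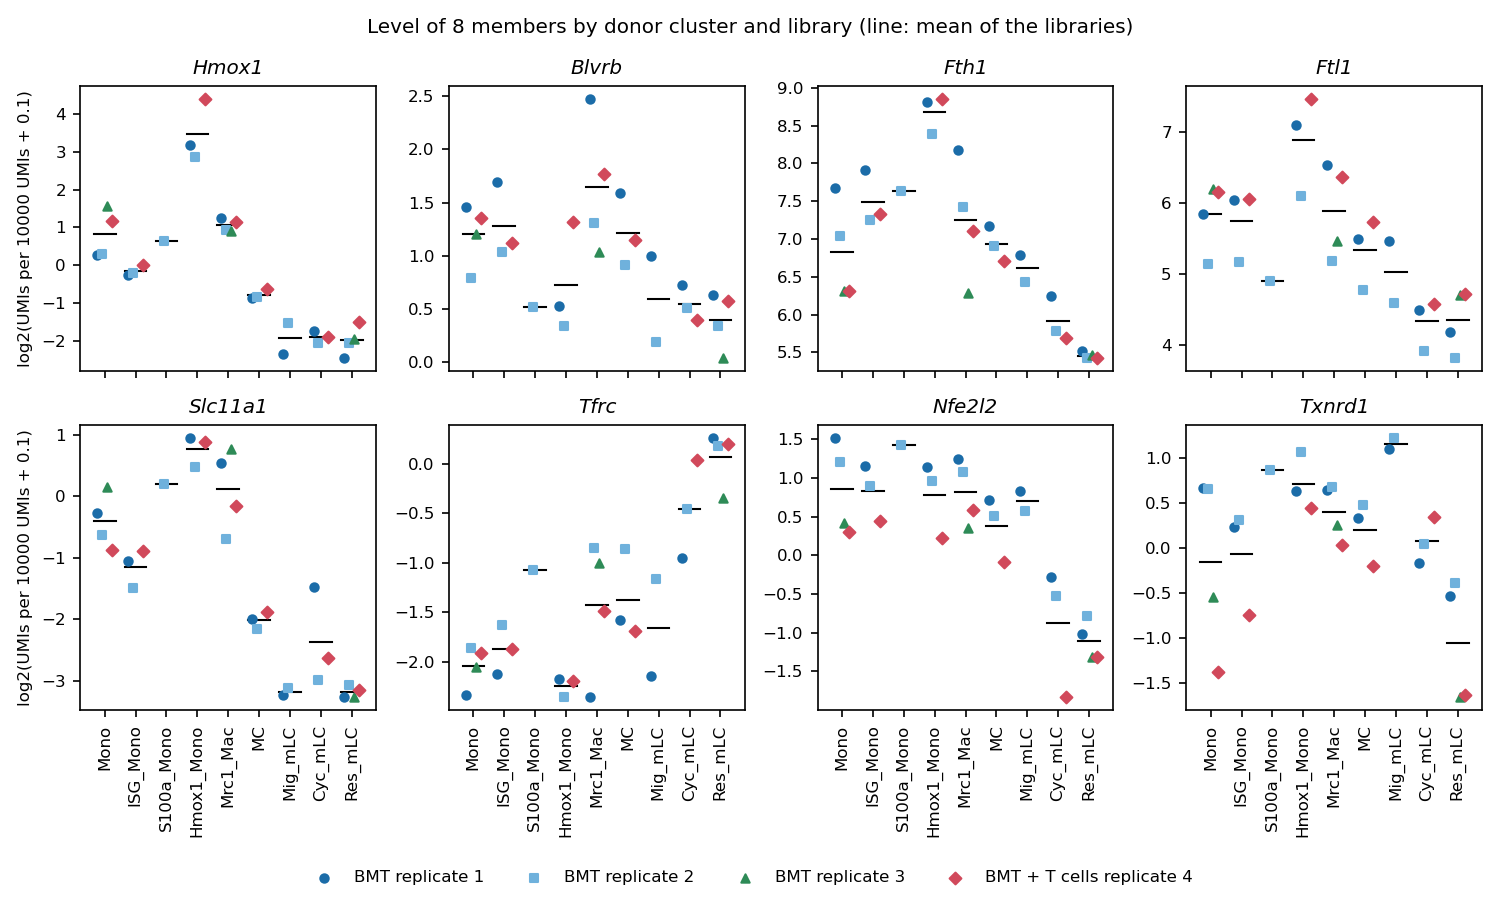
Level of the 8 tested genes as log2(UMIs per 10000 UMIs + 0.1) on the vertical axis in each donor cluster on the horizontal axis, with 1 symbol per library and a line at the mean of the libraries. Hmox1 and Fth1 in Hmox1_Mono sit above every library of every other cluster, and Tfrc is highest in Res_mLC.

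Hmox1 was highest in the cluster named for it. Its level in Hmox1_Mono was 9.01 CP10K in BMT replicate 1, 7.16 CP10K in replicate 2 and 21.0 CP10K in BMT + T cells (12.4 ± 7.51, SD, n = 3), against 2.26, 1.80, 1.76 and 2.13 CP10K in Mrc1_Mac (1.99 ± 0.248, n = 4) and 1.12, 1.13, 2.88 and 2.16 CP10K in Mono. The groups did not overlap, and the BMT + T cells library was the highest. The difference to Mrc1_Mac was 2.50 (log2, SE 0.27), a description because the gene names the cluster. Mrc1_Mac, Mono and S100a_Mono followed with overlapping ranges, then ISG_Mono and MC, and the 3 Langerhans cell clusters were last and overlapped with each other.

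Hmox1_Mono, with 2.18% of donor cells, held 19.5% of all donor Hmox1 UMIs (2303 UMIs), and 1 library decided that share. In BMT + T cells the cluster held 73.4% of the Hmox1 UMIs in 14.7% of the cells, whereas in BMT replicates 1 to 3 it held 5.82, 6.17 and 8.01% in 0.933, 1.47 and 2.65% of the cells. Without BMT + T cells the share was 6.15%. Within Hmox1_Mono the cells were uneven: the median cell had 3.45, 2.46 and 7.07 CP10K of Hmox1 in BMT replicates 1 and 2 and BMT + T cells, the 90th percentile was at 16.8, 14.6 and 40.0 CP10K, and the highest cell at 95.8, 109 and 272 CP10K. Hmox1 was detected in 56.9% of Hmox1_Mono cells of BMT replicate 2 (exact 95% interval 47.7 to 65.8%) and in 86.8% of those of BMT + T cells (78.8 to 92.6%). In Mrc1_Mac it was detected in 62.5, 41.5, 26.7 and 54.8% of cells. Depth differed between these clusters (medians of 3751 to 8924 UMIs per cell in the Hmox1_Mono libraries and 2214 to 14259 UMIs in Mrc1_Mac), so cells were also thinned to 2000 UMIs. Cells with fewer UMIs were left out of this, 182, 770, 38 and 87 donor cells over all clusters in replicates 1 to 4. Among the deeper cells kept, the shares were 41.7, 47.2 and 66.7% in Hmox1_Mono and 31.9, 22.5, 26.1 and 26.7% in Mrc1_Mac, with no overlap. In Res_mLC they were 0 to 2.31% after thinning. Intervals of shares and UMI counts cover counting error only.

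Against Mrc1_Mac, both ferritin chains were higher in Hmox1_Mono, whereas Blvrb was lower. In this comparison 16.2% of the 7267 genes tested passed limma's moderated test at a Benjamini-Hochberg adjusted p under 0.05, 4.61% as higher and 11.6% as lower. Of the 7 tested genes other than Hmox1, 2 were higher, 2 lower and 3 did not pass. The median over all genes was −0.18 (log2).

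Fth1, the ferritin heavy chain, stood at 449, 335 and 462 CP10K in Hmox1_Mono of BMT replicates 1 and 2 and BMT + T cells, and at 291, 172, 77.9 and 138 CP10K in Mrc1_Mac of replicates 1 to 4. Every Hmox1_Mono value lay above every Mrc1_Mac value. The difference was 1.27 (log2, SE 0.21, limma adjusted p = 2.99e-04, higher in 3 of 3 libraries). The light chain Ftl1 stood at 137, 68.0 and 176 CP10K in Hmox1_Mono and at 92.3, 36.4, 44.1 and 82.3 CP10K in Mrc1_Mac. Here the groups overlapped, because BMT replicate 2 was low in both clusters. Within each library Hmox1_Mono was higher, by 1.03 in the fit with library as a block (SE 0.18, limma adjusted p = 2.92e-04), and without that block limma's adjusted p was 0.0868. Together the ferritin chains made 6.34, 4.29 and 6.79% of the UMIs pooled over the Hmox1_Mono cells, against 4.97, 2.55, 2.21 and 2.97% in Mrc1_Mac. Cells with more UMIs weigh more in these pooled shares. Both genes have processed pseudogenes, so their counts are uncertain to the extent that reads were shared.

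Blvrb was 1.34, 1.16 and 2.39 CP10K in Hmox1_Mono and 5.46, 2.37, 1.95 and 3.31 CP10K in Mrc1_Mac, so its groups overlapped at BMT + T cells. Its difference was −1.03 (SE 0.21, limma adjusted p = 0.00178, lower in 3 of 3 libraries). This value rested on BMT replicate 1, where Mrc1_Mac had its highest Blvrb (5.46 CP10K) and Hmox1_Mono lay inside the range of the other libraries. Without that library the difference was −0.63 and limma's adjusted p was 0.160 (from 2.29e-04 to 0.160 over all alternatives). Without the same library Fth1 differed by 1.53 (limma adjusted p = 7.65e-04), Ftl1 by 1.18 (limma adjusted p = 0.00220) and Hmox1 by 2.70. The count of genes called in the whole table was 321 without it.

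Tfrc, which imports iron, was at 0.122, 0.0960 and 0.118 CP10K in Hmox1_Mono on only 2, 9 and 22 UMIs, and at 0.0958, 0.454, 0.398 and 0.257 CP10K in Mrc1_Mac. It was lower in 2 of 3 libraries and higher in BMT replicate 1. The difference of −0.81 (SE 0.28, limma adjusted p = 0.0475) lost its call under 9 of 12 alternative settings. Slc11a1 was at 1.83, 1.29 and 1.75 CP10K in Hmox1_Mono and 1.36, 0.520, 1.60 and 0.797 CP10K in Mrc1_Mac. These ranges overlapped, and they are of RNA, since metal transport was not measured. The difference of 0.78, higher in 3 of 3 libraries, did not pass (SE 0.28, limma adjusted p = 0.0572) and passed under 4 of 12 alternatives. Nfe2l2 itself differed by −0.16 (limma adjusted p = 0.564) and Txnrd1 by 0.18 (limma adjusted p = 0.704).

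The libraries fall into pairs by name, BMT replicates 1 and 2 and BMT replicate 3 with BMT + T cells, and whether a pair is one experiment is not stated in the labels. The paper describes its map of donor myeloid cells as 2 independent sorting and sequencing experiments on pooled mice, without naming the libraries of each. The libraries may therefore stand for fewer independent experiments than their number. Within the first pair the differences of Hmox1_Mono from Mrc1_Mac were 1.94 for Hmox1, 0.79 for Fth1, 0.74 for Ftl1 and −1.46 for Blvrb. In BMT + T cells, the only library of the second pair with enough Hmox1_Mono cells, they were 3.24, 1.74, 1.10 and −0.45. All 4 kept their direction in both.

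**Figure D2:**
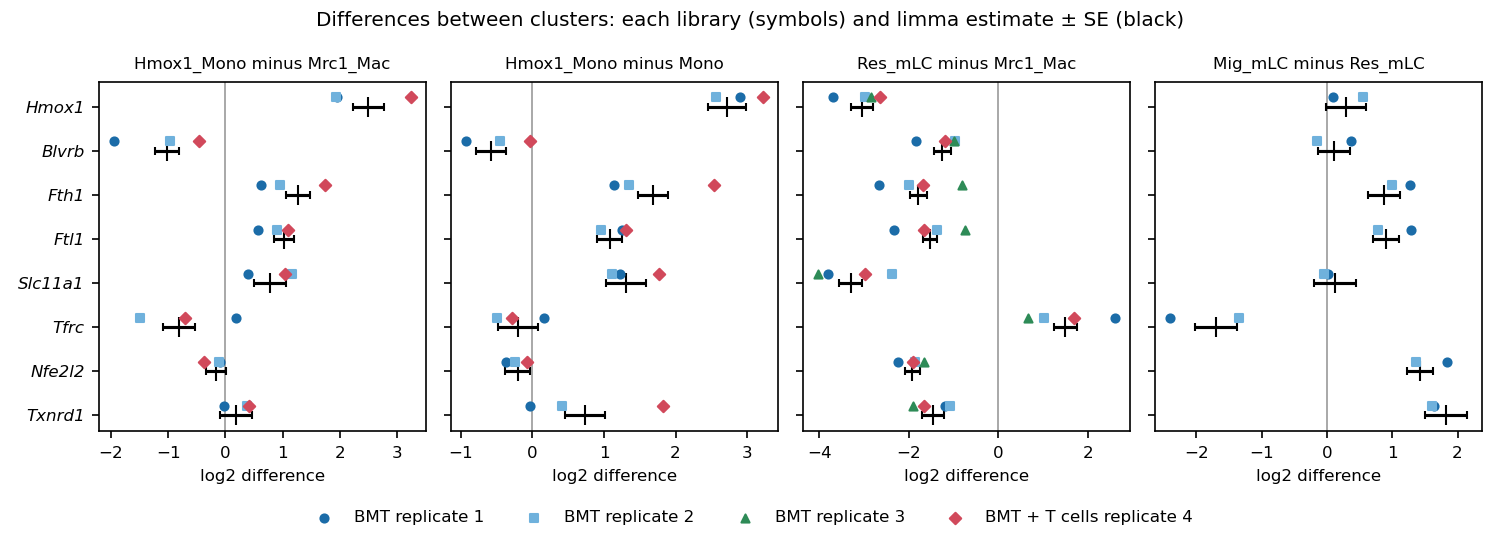
Log2 difference of CP10K + 0.1 on the horizontal axis for each of the 8 tested genes in the comparisons between clusters, with 1 symbol per library and the limma estimate with its SE in black. Fth1 and Ftl1 were above 0 in every library in both comparisons of Hmox1_Mono and below 0 in every library for Res_mLC against Mrc1_Mac.

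Monocytes of the Mono cluster gave a like picture for ferritin, and Slc11a1 passed as well; whether it differed between the 2 comparisons was not tested. Of all genes 15.5% passed, 4.91% as higher and 10.6% as lower in Hmox1_Mono (1126 genes, but 409 without BMT replicate 1 and 395 without replicate 2). Of the 7 tested genes other than Hmox1, 3 were higher and 4 did not pass. Both comparisons share the Hmox1_Mono cells and are not independent. Fth1 in Mono was 204, 131, 79.4 and 79.4 CP10K, all below the Hmox1_Mono values, with a difference of 1.69 (limma adjusted p = 7.79e-06). Ftl1 was 57.6, 35.1, 73.5 and 71.4 CP10K in Mono, with 1 Hmox1_Mono library (replicate 2, 68.0) inside this range and a difference of 1.08 (limma adjusted p = 1.38e-04, and 0.0817 without library as a block). Slc11a1 was 0.725, 0.543, 1.01 and 0.444 CP10K in Mono, below all Hmox1_Mono libraries, with a difference of 1.31 (limma adjusted p = 0.00225, up to 0.0518 over the alternatives). It no longer passed without BMT + T cells or when 0.01 was added before the logarithm. The values that did not pass were −0.58 for Blvrb, −0.20 for Tfrc, −0.21 for Nfe2l2 and 0.73 for Txnrd1, with limma adjusted p of 0.0643, 0.687, 0.473 and 0.0758.

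Slc40a1, ferroportin, was captured mostly in another cluster. Of 138 donor UMIs of Slc40a1, 100 were in S100a_Mono (72.5%, exact 95% interval 64.2 to 79.7%), 95 of them from the 594 S100a_Mono cells of BMT replicate 2. Replicate 1 had 5 UMIs in 11 such cells and BMT + T cells had 0 in 9. Hmox1_Mono held 0 UMIs of it, and Mrc1_Mac 25. In BMT replicate 2, 12.3% of S100a_Mono cells had a UMI (9.76 to 15.2%, 6.62% after thinning) at a median of 5038 UMIs. Of 678 ISG_Mono cells of that library, at a median of 7836 UMIs, 0 had one, which allows a share of cells with a UMI of up to 0.442% and sets no limit on cells that express the gene. S100a_Mono was also where neutrophil markers were highest, at 561 to 1607 CP10K. It had enough cells in 1 library only, so no test across libraries was possible.

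The Nrf2 genes were spread differently. Nfe2l2 was highest in Mono of BMT replicate 1 (2.76 CP10K) and S100a_Mono of BMT replicate 2 (2.59 CP10K), and its Hmox1_Mono values of 2.11, 1.85 and 1.06 CP10K overlapped those of Mrc1_Mac at 2.26, 2.01, 1.18 and 1.40 CP10K. Txnrd1 was highest in Mig_mLC, at 2.05 and 2.24 CP10K, and was 1.45, 1.99 and 1.26 CP10K in Hmox1_Mono. Gclm was low in all donor clusters, with overlapping ranges. Its highest value was that of Cyc_mLC in BMT + T cells at 0.521 CP10K, while BMT replicates 1 and 2 were at 0.0844 and 0.124 CP10K there. In Hmox1_Mono it was 0.0336, 0.0521 and 0.189 CP10K on 30 UMIs in all.

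Resident Langerhans cells stood at the other end of this set. Their 4 Langerhans cell markers (Cd207, Epcam, Mfge8, Cldn1) summed to between 64.1 and 89.8 CP10K, against 0.143 to 2.74 CP10K in Hmox1_Mono. Against Mrc1_Mac, 31.5% of all genes passed in 4 libraries (17.9% as higher and 13.6% as lower in Res_mLC, 2292 genes in all and 1384 without BMT replicate 2), and all 8 tested genes of the set passed: 7 as lower and Tfrc as higher. These 8 calls held under all 12 alternatives that set no cut on size. With a log2 cut of 2 only those of Hmox1 and Slc11a1 remained. The 3 listed genes of dissociation stress were lower in Res_mLC in every library too, at 6.10, 2.55, 1.96 and 3.01 CP10K against 7.35, 4.56, 7.74 and 8.38 CP10K in Mrc1_Mac, and their part in the result was not tested. In the Mrc1_Mac libraries themselves depth was uneven, with 45 cells at a median of 2214 UMIs in BMT replicate 3.

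Tfrc was 1.09, 1.03, 0.687 and 1.05 CP10K in Res_mLC, above each of the Mrc1_Mac values, with a difference of 1.49 (SE 0.25, limma adjusted p = 5.31e-05, higher in 4 of 4 libraries). It was detected in 39.0, 42.4, 52.9 and 45.3% of Res_mLC cells (14.0, 15.7, 14.9 and 13.1% after thinning). Cyc_mLC came next at 0.416, 0.628 and 0.929 CP10K, a range that overlapped that of Res_mLC. Fth1 was 45.8, 43.0, 44.0 and 43.0 CP10K in Res_mLC and so hardly varied between libraries. It was below every Mrc1_Mac value, by 1.79 on the log2 scale in the fit (a difference of −1.79, SE 0.19, limma adjusted p = 1.28e-07). Ftl1 was 18.1, 14.0, 26.1 and 26.1 CP10K, with no overlap and a difference of −1.53 (limma adjusted p = 4.70e-08). The ferritin chains made 0.632 to 0.819% of the UMIs pooled over the Res_mLC cells of a library.

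Hmox1 in Res_mLC was 0.0832, 0.140, 0.159 and 0.254 CP10K, all far below Mrc1_Mac, with a difference of −3.04 (SE 0.24, limma adjusted p = 6.95e-10). Slc11a1 was nearly absent from Res_mLC: 1, 11, 1 and 12 UMIs in the 4 libraries, 25 in all, against 1922 UMIs in Mrc1_Mac. Its difference was −3.30 (limma adjusted p = 3.67e-10), and over the alternatives it ran from −0.54 to −5.69, since at so few UMIs it depends on the constant added before the logarithm. Nfe2l2 was 0.396, 0.479, 0.303 and 0.301 CP10K, below all Mrc1_Mac values (−1.92, limma adjusted p = 1.16e-09). Blvrb differed by −1.25 and Txnrd1 by −1.46, with limma adjusted p of 1.49e-05 and 7.42e-05.

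Migrating Langerhans cells, present with enough cells in BMT replicates 1 and 2 only, had the reverse for several of these genes when set against Res_mLC. The comparison has the same Res_mLC libraries as the one above. Of all genes 20.1% passed, 6.81% as higher and 13.3% as lower (1464 genes, but 379 without BMT replicate 1 and 345 without replicate 2), and of the 8 tested genes 4 were higher, 1 lower and 3 did not pass. Tfrc was 0.126 and 0.345 CP10K in Mig_mLC, below all Res_mLC libraries (−1.70, SE 0.32, limma adjusted p = 4.17e-04). Nfe2l2 was 1.67 and 1.39 CP10K, above all Res_mLC libraries (1.42, SE 0.20, limma adjusted p = 1.25e-05). Txnrd1 was likewise above them (1.83, SE 0.32, limma adjusted p = 1.93e-04). Fth1 was 111 and 86.2 CP10K and higher by 0.87 (limma adjusted p = 0.0134), and Ftl1 was 44.2 and 24.1 CP10K, with BMT replicate 2 inside the Res_mLC range, and higher by 0.91 (limma adjusted p = 0.00205). Hmox1, Blvrb and Slc11a1 differed by 0.29, 0.11 and 0.13 and did not pass (limma adjusted p of 0.531, 0.778 and 0.809). With BMT replicate 1 or 2 left out Mig_mLC is 1 library, so these settings cannot test agreement between libraries. The calls of Nfe2l2 and Txnrd1 held under all 12 alternatives. Those of Fth1 and Ftl1 were lost without either library and with means of the deposited log values (limma adjusted p up to 0.314 and 0.273), that of Ftl1 also without library as a block, and that of Tfrc without BMT replicate 1 (limma adjusted p = 0.0737).

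The ratio of the ferritin chains differed between libraries in most clusters alike, and is read here between libraries and not as the level of one chain against the other. The UMI ratio of Fth1 to Ftl1 had a median over clusters of 3.25 in BMT replicate 1 (2.50 to 3.67) and 4.25 in replicate 2 (3.07 to 6.68), but 1.69 in replicate 3 (1.08 to 1.77) and 1.96 in BMT + T cells (1.11 to 2.62). BMT replicates 1 and 2 did not overlap with BMT replicate 3, and overlapped with BMT + T cells only where BMT replicate 1 was lowest, at 2.50 in Mig_mLC and 2.52 in Res_mLC. Replicates 2 and 3 have the same label, so this gap is not one between labels. For BMT + T cells against replicates 1 and 2, label and pair of libraries cannot be told apart.

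**Figure D3:**
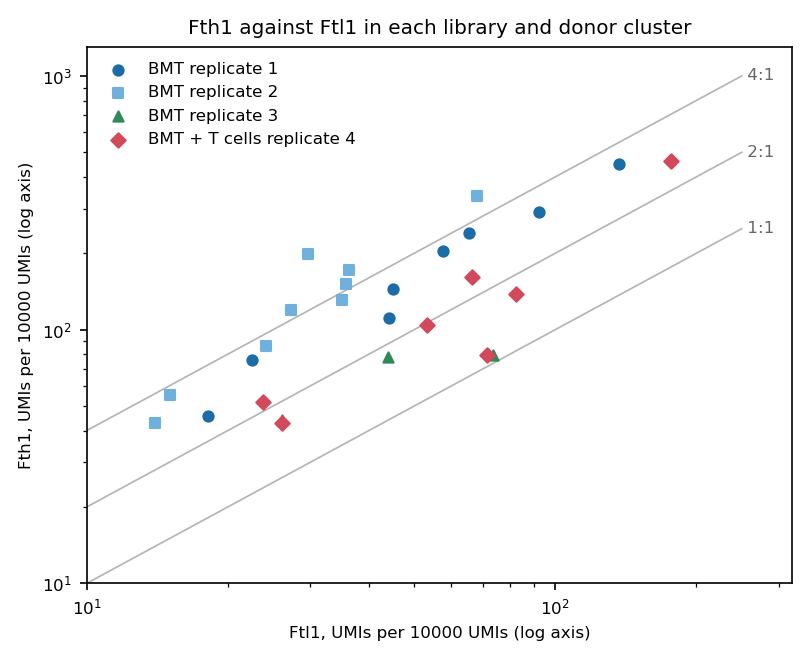
Fth1 (vertical) against Ftl1 (horizontal) in UMIs per 10000 UMIs on log axes, 1 point per donor library and cluster, with symbols by library. Points of BMT replicates 1 and 2 lie mostly above those of BMT replicate 3 and BMT + T cells at the same Ftl1 level.

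Over the 27 library and cluster means, Hmox1 rose with Ftl1 (Pearson r = 0.85) and Fth1 (r = 0.79), while Tfrc went against Ftl1 (r = −0.82) and Fth1 (r = −0.80). Points of 1 library share depth and those of 1 cluster share cell type, so these r describe the 27 means and carry no test. The tested genes most like Hmox1 by this measure were Ecm1 and Ctsl (0.93 each), Ctsb and Vat1 (0.92 each) and Slc11a1 (0.91). Those most like Tfrc were Ppp2r3a (0.94), Plekhg5 and Acap1 (0.91 each), Slc38a1 (0.90) and Abcc4 (0.89). Those most like Slc40a1 were Stfa2l1 (0.96), Retnlg (0.93), Hdc (0.92), Cstdc4 (0.89) and Lrg1 (0.85), a likeness that rests on the single S100a_Mono mean.

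A set of 5 lists of other genes of these pathways was read beside the members. Of 21 tested targets of Nrf2, 6 were higher and 1 lower in Hmox1_Mono than in Mrc1_Mac, 33.3% of the list. Of all genes 16.2% were called, 4.61% as higher and 11.6% as lower. The list median was 0.34 (log2) against −0.18 for all genes. The higher genes were led by Slc7a11, which imports cystine (1.30), then Txn1, thioredoxin (1.05), Esd (1.02), Ugdh (0.92) and Sqstm1, the autophagy receptor p62 (0.71), and the lower one was Tkt, transketolase (−0.58). Of 11 iron genes 2 were higher, the metal importer Slc39a14 (1.48) and the iron sensor Fbxl5 (1.05), and 2 lower, Hfe (−1.21) and Ireb2 (−0.83). Of 7 genes of heme uptake and transport, Hp, the hemoglobin carrier haptoglobin, was higher (2.24) and Hebp1 lower (−1.17). Of 8 heme synthesis genes 1 was higher, Tspo (0.63), and 2 lower, among them Ppox (−0.91). Of 6 regulators 0 passed by limma, with 1 at an unadjusted p under 0.05 and 1 by voom. The shares called were 36.4% of the iron, 28.6% of the heme uptake and transport and 37.5% of the heme synthesis genes. Of the 14 genes named by the rule here, 4 kept an adjusted p under 0.05 under all alternatives: Hp, Hebp1, Slc39a14 and Txn1.

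Against Mono, 7 of the 21 Nrf2 targets were higher in Hmox1_Mono and 1 lower, 38.1% against 15.5% of all genes (list median 0.58, all genes −0.15). Srxn1, sulfiredoxin, was higher by 1.67, Slc7a11 by 1.42, the exporter Abcc1 by 1.37 and Sqstm1 by 1.27. Slc39a14 was higher by 1.66 and Slc25a28, the mitochondrial iron importer, by 1.00, while Hfe was lower (−1.38). Hp, higher than in Mrc1_Mac, was lower than in Mono (−0.94), and Lrp1, the receptor for hemopexin with heme, was higher (0.90). Of the 11 genes that the rule named here, 3 kept an adjusted p under 0.05 under all alternatives: Slc39a14, Srxn1 and Sqstm1. Of 8 heme synthesis genes 0 passed by limma (2 at an unadjusted p under 0.05 and 0 by voom), and of 6 regulators 0 passed (2 at an unadjusted p under 0.05 and 2 by voom).

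In Res_mLC against Mrc1_Mac, 11 of the 21 Nrf2 targets were lower and 1 higher, 57.1% against 31.5% of all genes (list median −0.46, all genes 0.12). Mgst1 (−2.69), Srxn1 (−1.69), Gstm1 (−1.42), Ptgr1 (−1.26) and Slc7a11 (−1.14) were among the lower ones and Cbr3 (1.49) was the higher one. Lrp1 was lower (log2 difference −3.67). Of the 14 genes that the rule named in this comparison, 9 kept an adjusted p under 0.05 under all alternatives, and Slc7a11 and Bach1 were not among them. Of the regulators, Mafg (−1.26), a partner of Nrf2, and Bach1 (−0.83), which represses Hmox1 and is released by heme, were lower. In Mig_mLC against Res_mLC, 3 targets were higher and 2 lower, 23.8% of the 21 against 20.1% of all genes (list median −0.12, all genes −0.26). Slc7a11 (1.32), Sqstm1 (1.25) and Srxn1 (1.23) were the former, and Cbr3 (−1.74) and Tkt (−0.63) the latter. Only Cbr3 and Sqstm1 of these 5 kept an adjusted p under 0.05 under all alternatives.

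Between labels, the donor BMT + T cells library was set against the 3 BMT libraries over the 3 clusters with at least 20 cells in all 4 (Mono, Mrc1_Mac and Res_mLC). None of 7345 genes passed (0%), with 352 at an unadjusted p under 0.05 by limma. For the test, BMT + T cells, being 1 library, was given the spread of the 3 BMT libraries. Hmox1 and Ftl1 lay above all 3 BMT libraries in BMT + T cells, and Txnrd1 below all 3. From the mean of the 3 BMT libraries they differed by 0.41, 0.51 and −0.96 (SE 0.39 for Txnrd1). Their limma adjusted p was 0.949 for each. Txnrd1 was called without BMT replicate 3 (a difference of −1.28) and under no other alternative. Against BMT replicate 3 alone, the other library of its pair, these differences were 0.10, 0.29 and −0.34. The count of 0 rested on the setting: genes were called without BMT replicate 3 and with the pair of library names as a term. Without BMT replicate 3, label and pair of libraries cannot be told apart. Either setting leaves less to estimate the spread from, through a library fewer or a further term. Such calls are therefore not read as effects of the label.

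Keratinocytes used the set in another way. Fth1 was at 58.0 CP10K in basal cells of the BMT library and 52.6 CP10K in those of BMT + T cells, at 28.4 and 27.3 CP10K in differentiated cells and 21.9 and 23.9 CP10K in follicular cells (UMIs pooled over the cells of a cluster). Ftl1 was 8.57 and 8.22 CP10K in basal, 1.29 and 1.74 CP10K in differentiated and 11.0 and 11.5 CP10K in follicular cells. Among these 3 clusters both libraries had most Fth1 in basal and most Ftl1 in follicular cells, while the cluster KC_Five had nearly as much Fth1 as basal cells or as much (56.4 and 52.6 CP10K). Slc40a1 stood at 0.174 CP10K (exact Poisson interval 0.126 to 0.234) and 0.203 CP10K (0.149 to 0.271) in follicular cells, at 0.0679 and 0.0586 CP10K in differentiated cells, and on 4 UMIs in basal cells of each library. A UMI of it was seen in 11.9 and 13.9% of follicular cells and in 0.238 and 0.234% of basal cells, at medians of 8070 and 7913 UMIs in follicular and 8053 and 8223.5 UMIs in basal cells. Gclm was likewise highest in follicular cells, at 0.553 and 0.606 CP10K. Hmox1 was scarce, with 172 and 126 UMIs in all keratinocytes, and Slc11a1 had 5 and 3 UMIs.

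With 1 library per label, keratinocytes allowed no test of the label. Averaged over the 5 clusters, BMT + T cells minus BMT was −0.20 (log2) for Tfrc, which was lower in 5 of 5 clusters, −0.17 for Txnrd1, −0.14 for Nfe2l2, −0.11 for Gclm, −0.07 for Blvrb, −0.04 for Fth1 and 0.12 for Ftl1. All lay within the central 95% of 7650 genes, from −0.25 to 0.26, whose median was −0.01.

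**Figure D4:**
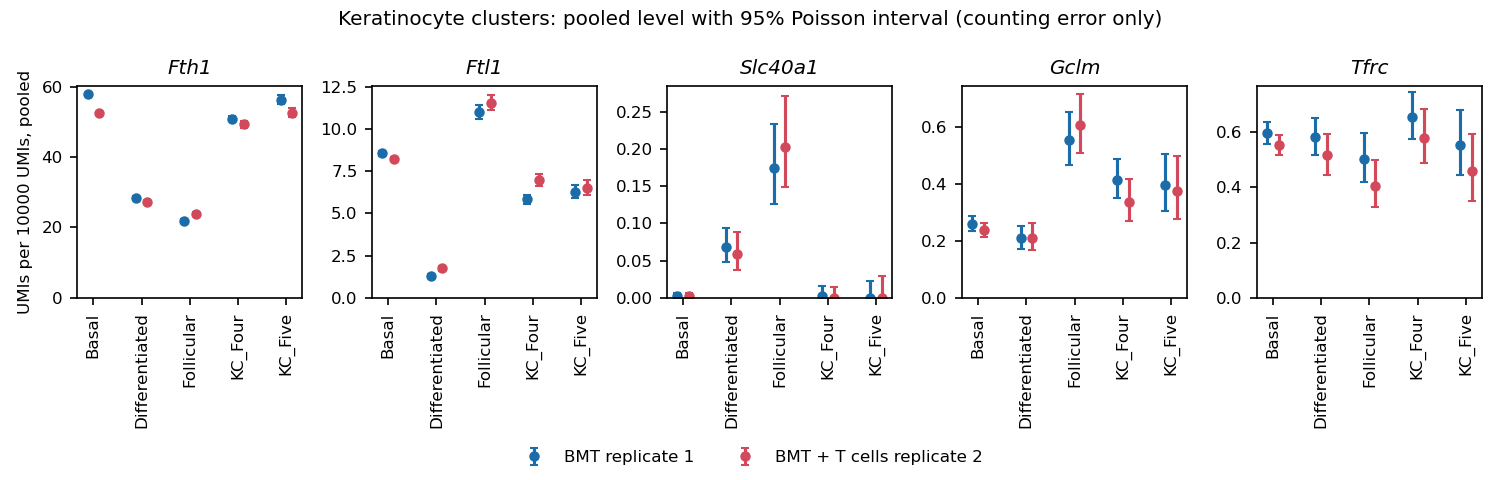
Level of the plotted genes in UMIs per 10000 UMIs, pooled, on the vertical axis from 0 in the 5 keratinocyte clusters, for the BMT and BMT + T cells libraries, with 95% Poisson intervals that cover counting error only. Fth1 is lowest in differentiated and follicular cells, and Slc40a1 and Gclm are highest in follicular cells, in both libraries.

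Host cells held 781 cells of 1 library at a median of 4376 UMIs and 14.0% mitochondrial UMIs, in numbered clusters, so the values have no replicate. Tables were normalised separately, and levels of different tables are set side by side only. In clusters 1 and 3 (276 and 161 cells) Fth1 was 1.46 and 3.23 CP10K, Ftl1 1.27 and 2.85 CP10K, and Tfrc 1.73 and 1.57 CP10K, with 0 UMIs of Hmox1 in both. These were the clusters with the highest Tfrc and, but for cluster 7 of 18 cells, the lowest ferritin. Their median mitochondrial share was 15.6 and 16.9% of UMIs, against 6.09, 12.9, 2.91 and 4.79% in clusters 2, 4, 5 and 6, and the 6 genes of dissociation stress summed to 11.2 and 12.6 CP10K, against 5.49, 2.94, 6.77 and 10.6 CP10K. The part of either in these levels was not tested. Cluster 4 (90 cells), where the 4 migrating markers (Ccr7, Ccl22, Cd83, Fscn1) summed to 28.2 CP10K, had Tfrc at 0.117 CP10K, Ftl1 at 15.6 CP10K, Fth1 at 8.57 CP10K and Txnrd1 at 1.34 CP10K. Its Tfrc interval (0.0471 to 0.241) did not reach that of clusters 1 and 3. Slc11a1 had 50 UMIs in cluster 1.

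Cluster 2 (170 cells) had Fth1 at 18.2 CP10K and Ftl1 at 15.5 CP10K. Its keratinocyte markers summed to 46.2 CP10K and its Langerhans cell markers to 50.7 CP10K, and the part of keratinocyte RNA in its ferritin values was not tested. Cluster 5 (43 cells, keratinocyte markers 382 CP10K) had Fth1 at 30.3 CP10K and Ftl1 at 5.53 CP10K, and cluster 6 (23 cells, T cell markers 139 CP10K) had Fth1 at 50.5 CP10K and Tfrc at 1.49 CP10K.

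**Figure D5:**
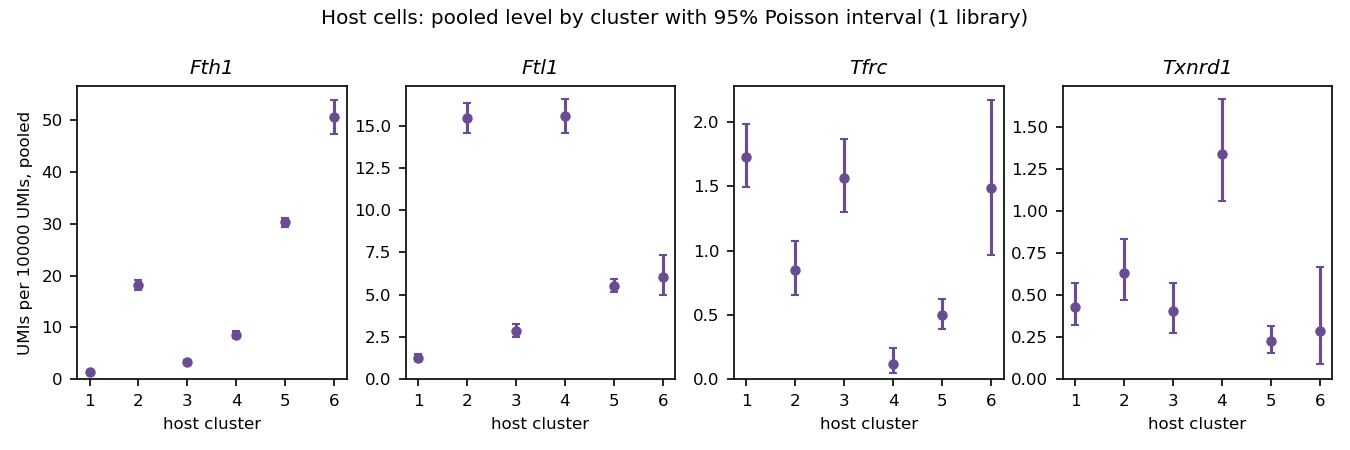
Pooled level of the plotted genes in UMIs per 10000 UMIs on the vertical axis from 0 by host cluster (1 library), with 95% Poisson intervals. Clusters with under 20 cells are left out. Tfrc is highest in clusters 1, 3 and 6 and at 0.117 in cluster 4, where Ftl1 is at 15.6.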

How the data were processed

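Per the labels and the study's methods, the authors aligned reads to the mouse genome (GRCm38) with kallisto and bustools, and filtered, normalised and clustered cells in Seurat. Versions and annotation were not given in the sources used here. The authors removed cells with under 500 genes or over 20% mitochondrial reads, and doublets with DoubletFinder. The deposited tables still held 72 donor, 0 keratinocyte and 133 host cells under 500 genes and 181, 1 and 208 over 20%, which were kept here. Genes were counted over those listed, and the listed donor genes held a median of 91.3% of a donor cell's UMIs. The count of 72 may therefore include cells that had 500 genes before the donor genes were cut. The deposited expression values are the natural log of 1 plus UMIs per 10000 UMIs of a cell. The deposited cell tables give library, cluster and the percent of mitochondrial UMIs. Undoing the log gave whole UMIs for all values (tolerance 0.001). The number of per-sample columns left unmapped was 0.

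Mean CP10K per library and cluster (at least 20 cells) was tested as log2(CP10K + 0.1) with limma 3.58.1 and statmod 1.5.0 (R 4.3.3), using moderated tests with trend and robust variance, all donor clusters in 1 fit and library as a block, because clusters of one library are the same sample. Genes with a mean under 0.1 CP10K were left out, and p-values were Benjamini-Hochberg adjusted over all genes. Fold changes are on this scale and understate changes of low genes. The unit was therefore as foreseen, a log-normalised value, and voom on recovered UMI sums was an alternative. Scripts ran in Python 3.11.15, with pandas 2.3.3 and SciPy 1.17.1, and were tested on simulated data. Sequences and coordinates come from RefSeq tables of GRCm38.p6. Shares have exact Clopper-Pearson and UMI counts exact Poisson intervals (95%), and a count of 0 was bounded by 3 counts.

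Named list genes were, per list and comparison, up to 6 genes with adjusted p under 0.05 and the same direction in every library, by absolute difference. Likeness to Hmox1, Slc40a1 and Tfrc was ranked by Pearson r, with 5 genes named. The members and lists were chosen with earlier results of these data known. Alternatives were other pseudocounts (1 and 0.01), no filter, means of the deposited log values, other cell minima (10 and 50), voom, no block, each library left out and a log2 cut of 2. Where 12 alternatives are counted, or a call is said to hold under all, the log2 cut is left out.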

Additional observations from a re-analysis of the deposited data

How the results depend on the processing

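Of the differences of single genes between clusters or labels under the alternatives, 900 kept their side of the threshold, 185 lost a call, 7 gained one and 12 changed sign. Hmox1 and Fth1 stayed above both comparison clusters in Hmox1_Mono under all 12 alternatives, and the 8 calls of Res_mLC against Mrc1_Mac held under all 12. The 12 do not include the log2 cut of 2. With that cut Hmox1 alone of the members stayed called in the Hmox1_Mono comparisons (2.50 and 2.72). Only Hmox1 (−3.04) and Slc11a1 (−3.30) did in Res_mLC against Mrc1_Mac, and no member did in Mig_mLC against Res_mLC. The genes called between Hmox1_Mono and Mrc1_Mac (1178) were 778 with means of the deposited natural log values, 402 with at least 10 cells, 657 without the replicate block, 321 to 1321 with one library left out (321 without BMT replicate 1, 363 without replicate 2) and 61 with the log2 cut of 2. Between Hmox1_Mono and Mono (1126) they were 422 with at least 10 cells, 581 without the replicate block, 395 to 1198 with one library left out and 65 with the cut. Between Res_mLC and Mrc1_Mac (2292) they were 1436 with at least 10 cells, 3971 by voom, 1384 to 2225 with one library left out and 255 with the cut. Between Mig_mLC and Res_mLC (1464) they were 2421 with at least 50 cells, 3758 by voom, 345 to 1769 with one library left out and 190 with the cut. Without the block the last 2 were 1674 and 1267. Of the members' calls, the block carried Ftl1 in both Hmox1_Mono comparisons and in Mig_mLC against Res_mLC, and Tfrc in Hmox1_Mono against Mrc1_Mac. The share of higher calls moved from 335 of 1178 to 426 of 778 with natural log means and 557 of 985 by voom, and for Res_mLC from 1302 of 2292 to 2396 of 3127 and 2693 of 3971. Between labels the 0 calls became 228 with the pair of library names as a term and 0 to 529 with one library left out. Signs turned for Tfrc in Hmox1_Mono against Mono by voom (0.32). In Mig_mLC against Res_mLC they turned for Hmox1 without one library (from −0.087 without BMT replicate 2 to 0.649), for Blvrb with natural log means (−0.077), at least 10 cells (−0.185) and without BMT replicate 1 (−0.041), and for Slc11a1 without one library (from −0.030 without BMT replicate 2 to 0.393). Between labels they turned for Blvrb (−0.17) and Fth1 (0.10) over all cells, for Fth1 (0.27) and Nfe2l2 (0.037) with the pair term, and for Tfrc without one library (from −0.077 without BMT replicate 1 to 0.238). The cause was not tested. Thinning to 2000 UMIs left out cells with fewer UMIs. Among the cells kept, the share with Hmox1 moved to 41.7, 47.2 and 66.7% in Hmox1_Mono of BMT replicates 1 and 2 and BMT + T cells. In Mrc1_Mac of the same libraries it moved to 31.9, 22.5 and 26.7%. The share with Tfrc in Res_mLC moved to 14.0, 15.7, 14.9 and 13.1%, and that with Slc40a1 in S100a_Mono to 6.62%. Depth limits Slc11a1, Tfrc, Gclm and Slc40a1, which were under 0.5 CP10K in most clusters.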

Other observations

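Cell by cell, levels of Hmox1 and the ferritin chains were compared within Hmox1_Mono (24, 123 and 106 cells). Spearman's rho of Hmox1 with Ftl1 was 0.19, 0.38 and 0.38 in BMT replicates 1 and 2 and BMT + T cells, and with Fth1 0.16, 0.11 and 0.08. Fth1 and Ftl1 themselves had rho of 0.59, 0.21 and 0.58. In Mrc1_Mac the rho of Hmox1 with Fth1 was 0.50, 0.30, 0.36 and 0.58 in replicates 1 to 4, and with Ftl1 0.60, 0.29, 0.32 and 0.52. The chains also went with the cell's depth. In Hmox1_Mono rho with depth was 0.59, 0.39 and 0.25 for Ftl1 and 0.275, 0.216 and 0.334 for Fth1. In Mrc1_Mac it ran from 0.39 to 0.69 for Fth1 and from 0.43 to 0.64 for Ftl1. Hmox1 went with depth more in Mrc1_Mac (0.53, 0.22, 0.47 and 0.39 in replicates 1 to 4) than in Hmox1_Mono (0.18, 0.03 and −0.11). The part of depth in the rho of Hmox1 with the chains was not tested. Cells of a library share that depth structure, so these values are a description without a test.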
